A study of Mus musculus with 9 samples.

Results

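H3K27ac, an acetylation mark of histone H3 at active promoters and enhancers, was examined at 9 autosomal genes of the CTCF and cohesin machinery in naive CD8+ T cells. The genes were Ctcf, Yy1, Rad21, Smc3, Stag1, Nipbl, Mau2, Pds5a and Pds5b, a list set by name, and 9 of 9 were found among the 21410 autosomal protein-coding genes of the mm9 annotation (GENCODE vM1). Each gene was given a window from the end of its gene body to 50 kb upstream of its 5′ end. Enriched islands that came within 1 kb of an annotated transcription start site (TSS) of the gene were taken as its promoter islands and are given apart from the rest of the window.

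Cohesin is a ring-shaped complex of Smc1, Smc3 and Rad21 with a Stag subunit, which extrudes chromatin loops and holds sister chromatids together. Nipbl and Mau2 form its loader, and Pds5a and Pds5b bind the ring and regulate its release and its time on chromatin. Loop extrusion is halted where CTCF is bound in a convergent orientation, so that loop anchors and the borders of topologically associating domains often lie at CTCF sites, while Yy1 is a zinc finger factor that bridges promoters and enhancers. The genes for Smc1a, Stag2 and Hdac8, 3 genes of the same machinery, lie on the X chromosome and were left out.

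WT samples were from hCD2-Cre+ Rosa26 GFP mice with Tcf7+/+ Lef1+/+ alleles (4 samples), and dKO samples were from hCD2-Cre+ Rosa26 GFP mice with Tcf7 fl/fl Lef1 fl/fl alleles (3 samples), which lack the transcription factors Tcf1 and Lef1. All mice were young adults of both sexes on the C57BL/6 background, and Cre and the GFP reporter were carried by both groups. hCD2-Cre acts mainly in mature T cells and does not excise in every cell, so GFP+ TCRβ+ CD8+ CD62L+ cells with low to medium CD44 were sorted. The paper describes cell suspensions from spleen and lymph nodes, without naming the organ for this assay. Each genotype also had 1 input sample, with no values of its own, which makes 9 samples in all.

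The replicates of a genotype were pooled before islands were called, so the values of each gene come from 1 WT list and 1 dKO list, and no spread between mice can be had. The WT list held 65563 islands with 82668007 counts and the dKO list held 82213 islands with 57665047 counts. The covered length was 393 Mb in WT and 429 Mb in dKO, and the density was 210.5 and 134.3 counts per kb. Counts were therefore divided by the total of their list, and a change is given as the log2 ratio of dKO to WT, with a 95% Wilson interval that covers counting error only. Ratios of 1.5 or more in either direction were called, and no p-value was computed. The T cell markers Cd3e, Cd8a, Cd8b1 and Bcl11b had promoter islands in both lists, and Trac, also listed, was not found among the genes. Raw counts in WT and dKO were 6799 and 12395 for Cd3e and 35248 and 24796 for Bcl11b. They were 29951 and 7778 for Cd8a and 29951 and 9033 for Cd8b1, which share 1 WT island. Of 8 markers of B, myeloid and NK cells, 6 had promoter islands in both lists (431 to 7262 counts in WT and 178 to 4613 in dKO) and the other 2, Pax5 and Ncr1, had none, and the part of other cell types in the results was not tested.

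The start regions that carry the promoter islands are rich in CpG. RefSeq promoters of 300 bases (250 before the start and 50 after it, taken from a table of the GRCm38.p6 assembly and located in mm9 by an exact match) were at hand for 7 of the genes, and Rad21 and Nipbl had no entry. The 250 bases before the start of Ctcf, Stag1 and Pds5a are shown, since Ctcf is the gene whose promoter island had the same borders in both lists, and Stag1 and Pds5a are the genes with the lowest promoter ratios. Capitals mark CpG dinucleotides, of which there are 40, 31 and 44. The Ctcf sequence is chr8:108160188-108160437 on the plus strand, that of Stag1 is chr9:100543617-100543866 on the plus strand, and that of Pds5a is chr5:66089476-66089725 on the minus strand (mm9).
Ctcf: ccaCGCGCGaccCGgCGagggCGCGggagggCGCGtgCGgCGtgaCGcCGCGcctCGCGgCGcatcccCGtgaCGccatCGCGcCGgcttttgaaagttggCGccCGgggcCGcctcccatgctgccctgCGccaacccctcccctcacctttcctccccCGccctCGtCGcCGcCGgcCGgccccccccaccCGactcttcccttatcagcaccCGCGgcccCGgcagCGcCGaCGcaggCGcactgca
Stag1: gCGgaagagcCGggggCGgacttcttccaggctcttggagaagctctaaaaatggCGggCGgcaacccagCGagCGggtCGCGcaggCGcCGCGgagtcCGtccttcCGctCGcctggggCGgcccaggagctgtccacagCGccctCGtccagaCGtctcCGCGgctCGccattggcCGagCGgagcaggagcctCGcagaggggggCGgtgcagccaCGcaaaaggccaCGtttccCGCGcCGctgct
Pds5a: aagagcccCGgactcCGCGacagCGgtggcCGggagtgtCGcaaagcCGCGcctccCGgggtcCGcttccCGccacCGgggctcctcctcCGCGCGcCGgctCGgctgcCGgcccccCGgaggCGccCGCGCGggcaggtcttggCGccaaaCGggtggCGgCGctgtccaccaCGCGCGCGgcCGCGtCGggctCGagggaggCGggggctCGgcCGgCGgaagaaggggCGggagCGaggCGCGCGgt

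The 300-base promoters lay inside islands of both lists at all 7 genes, apart from a second Mau2 start, in the gene body at chr8:72553363-72553662, that lay outside the islands of both lists. GC content was 75.3% at Ctcf, 73.7% at Stag1, 80.3% at Pds5a, 75.7% at Pds5b, 81% at Yy1, 65% at Smc3 and 56% at the 5′ start of Mau2, beside a median of 57.3% (interquartile range 49% to 65.3%) over 17401 promoters. The observed to expected CpG ratio of these 7 ran from 0.856 at Yy1 to 1.16 at Ctcf, above the upper quartile of all promoters, 0.840. The second Mau2 start stood apart, with a GC content of 42.7% and a CpG ratio of 0.0739.

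4 motifs were searched on both strands of the 8 promoter sequences. The Tcf/Lef letters CTTTGAA or CTTTGAT, the YY1 letters AAGATGG and the ETS letters CCGGAAG were found in 0 of 8 sequences, where 7.27%, 6.26% and 11.7% of all promoters held them. The CTCF core letters AGGNGGC, which are short and GC-rich, were in 5 of 8 sequences (Ctcf, Pds5b, Yy1 and both starts of Mau2) and in 34.3% of all promoters. In the Ctcf sequence the match was 141 to 135 bases before the start, on the minus strand. These matches are descriptions of the letters in a short stretch of sequence and say nothing of binding.

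By scaled counts, promoter H3K27ac was lower in dKO at each of the 9 genes, while per kb of island it was not lower at Stag1 and Pds5a. The 9 of 9 promoter islands below WT at any size stood beside 67.9% of 13062 promoters with islands in both lists. A decrease of at least 1.5 times was found at 3 of 9 (Stag1, Pds5a and Pds5b), beside 20.1% of all promoters, and an increase of that size at 0 of 9, beside 12.6%. Of the 3 decreases, that of Pds5b fell short of 1.5 (-0.56) when counts were scaled by shared regions or by their median ratio. The median log2 ratio of the 9 promoters was -0.40, with single values from -0.80 to -0.29, and that of all promoters was -0.24 (interquartile range -0.52 to 0.13).

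**Figure D1:**
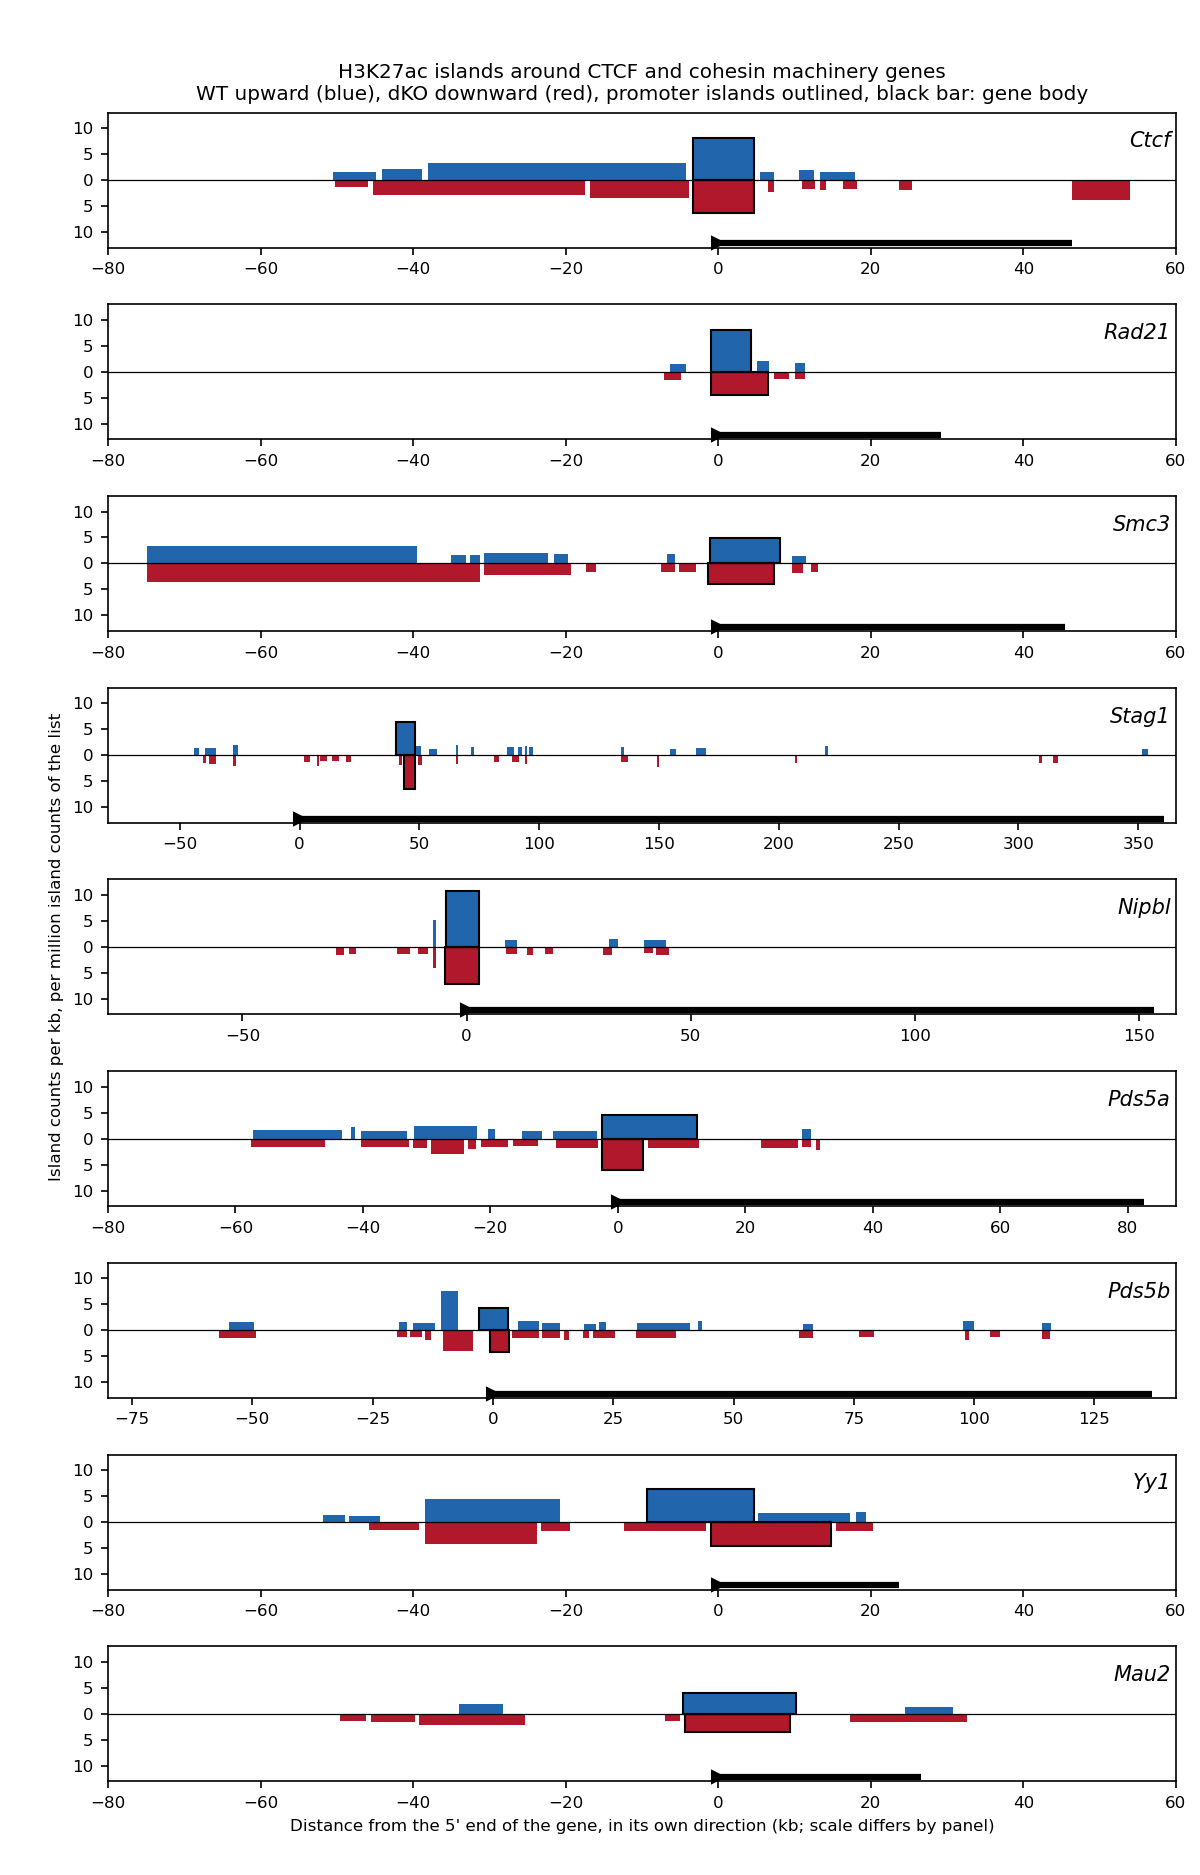
H3K27ac islands in the window of each gene, plotted by distance from the 5′ end in the gene's own direction (kb, with a scale per panel). WT islands rise and dKO islands hang from the line, their height is counts per kb divided by that list's island total, outlined islands are the promoter islands and black bars are gene bodies. The promoter islands are the tallest at each gene except Pds5b, where an upstream island is taller in WT, and the Mau2 window holds 3 WT and 6 dKO islands.

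Among the architectural factors, Ctcf had a promoter island with the same borders in both lists, chr8:108157201-108165200, which covers the first exon. This 8 kb island had 5388 counts in WT and 2960 in dKO, a log2 ratio of -0.34 (95% interval -0.41 to -0.28). Here width played no part, so the ratio per kb was also -0.34. This promoter was among the strong ones, with more counts per kb than 92.4% of all promoters in WT and 92.6% in dKO.

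The promoter island of Yy1 had 7267 counts over 14 kb in WT and 4132 over 15.8 kb in dKO. By counts the log2 ratio was -0.29 (-0.35 to -0.24), and per kb it was -0.47. The borders differed: the WT island ran mostly upstream of the 5′ end and the dKO island ran mostly into the gene, with more islands on either side. Over the whole merged region, chr12:110018801-110051400, which joins 3 WT and 3 dKO islands, counts were 9244 and 5648 and the log2 ratio was -0.19 (-0.24 to -0.14). By counts this was among the smaller decreases of the 9 genes.

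Of the cohesin ring, Rad21, the kleisin subunit that closes the ring, had 3454 promoter counts over 5.2 kb in WT and 1902 over 7.4 kb in dKO. The log2 ratio was -0.34 (-0.42 to -0.26) by counts and -0.85 per kb, the lowest per kb of the 9 genes. WT held a second island where the dKO island was continuous, and over the merged region chr15:51816601-51824200 the values were -0.45 by counts and -0.58 per kb. In rank, the Rad21 promoter had more counts per kb than 91.9% of all promoters in WT and than 77.6% in dKO.

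Smc3, the coiled-coil ATPase subunit, had 3725 promoter counts over 9.2 kb in WT and 1968 over 8.6 kb in dKO. Its log2 ratio was -0.40 (-0.48 to -0.32) by counts and -0.30 per kb, with nearly the same borders in both lists (merged region chr19:53673601-53683000).

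Stag1, which encodes the cohesin subunit that binds CTCF, had 4102 promoter counts over 7.8 kb in WT and 1650 over 4.4 kb in dKO. The log2 ratio by counts was -0.79 (-0.88 to -0.71), 0.577 times the WT share, while counts per kb differed by 0.03. Thus the Stag1 promoter island was narrower in dKO at a like scaled height, and a smaller dKO island lay beside it inside the WT borders. Over the merged region, chr9:100538401-100546200, the log2 ratio was -0.68 (-0.76 to -0.60) by counts and -0.20 per kb. The island was not at the 5′-most annotated start of Stag1, chr9:100498217, but at a group of starts downstream that include the RefSeq start at position 100543867.

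Nipbl, the loader subunit that also activates the cohesin ATPase, had the strongest promoter of the 9 genes per kb, above 97.3% of all promoters in WT and 94.8% in dKO. Its island held 6547 counts over 7.4 kb in WT and 3099 over 7.6 kb in dKO (merged region chr15:8391601-8399200). The log2 ratio was -0.56 (-0.62 to -0.50) by counts and -0.60 per kb, so that the island was lower at nearly the same width.

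Mau2, the loader subunit that binds the amino terminus of Nipbl, shares its promoter island with the start of Sugp1, so counts cannot be assigned to either gene. The island at chr8:72556401-72571200 held 4887 counts over 14.8 kb in WT and 2785 over 13.8 kb in dKO. The log2 ratio was -0.29 (-0.36 to -0.22) by counts and -0.19 per kb.

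Of the Pds5 regulators, Pds5a had 5549 promoter counts over 15 kb in WT and 2228 over 6.4 kb in dKO. By counts the log2 ratio was -0.80 (-0.87 to -0.73), and per kb it was 0.43. The sign differs because the WT island was split in dKO, and the dKO piece away from the start, 8 kb with 807 counts, was not counted as promoter. With both pieces, over chr5:66076401-66091600, the log2 ratio was -0.35 (-0.41 to -0.29) by counts and -0.29 per kb, so the decrease of 1.5 times at Pds5a rests on the split.

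Pds5b, the paralog of Pds5a, had 2146 promoter counts over 6 kb in WT and 968 over 4 kb in dKO, the fewest of the 9 promoters in both lists. Its log2 ratio was -0.63 (-0.74 to -0.52) by counts and -0.04 per kb (merged region chr5:151473401-151479600).

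**Figure D2:**
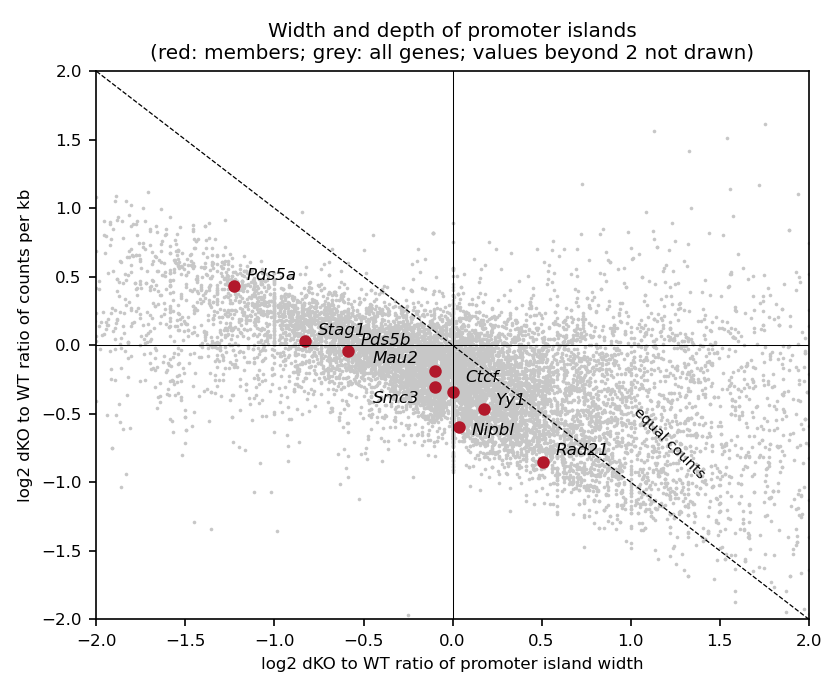
log2 dKO to WT ratio of promoter island width (x axis) against that of counts per kb (y axis), for the 9 genes (red) and all autosomal genes with promoter islands in both lists (grey). The dashed line marks equal scaled counts, and the 9 genes lie below it, with Pds5a, Stag1 and Pds5b on the side of narrower dKO islands and Rad21 on the side of wider ones.

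Width and depth of the promoter islands, taken without their merged neighbours, thus separated the promoters into groups. At Stag1, Pds5a and Pds5b the dKO islands were narrower by 0.83, 1.23 and 0.58 on the log2 scale, and these were the 3 genes whose counts were lower by at least 1.5 times. At Ctcf, Smc3, Nipbl and Mau2 the width differed by at most 0.10, and the islands were lower at a like width. At Rad21 and Yy1 the dKO islands were wider and lower. Per kb 7 of 9 promoters were below WT, beside 71.4% of all promoters, and the median was -0.30, beside -0.20. A decrease of at least 1.5 times per kb was found at Rad21 and Nipbl, beside 17.3% of all promoters, and an increase of that size at none of the 9, beside 2.29%. Over the whole merged regions, a measure chosen after the values were seen, 9 of 9 promoters were lower both by counts and per kb, beside 70.1% and 78.1% of all promoters, with log2 ratios by counts from -0.68 to -0.19.

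The 9 promoters differed in strength, from Mau2, with more counts per kb than 55.1% of all promoters in WT, to Nipbl, with more than 97.3%. Strong promoters had lower ratios in these lists in general. When the 13062 promoters were put in 4 bins of equal size by the mean of their scaled counts per kb, the median log2 ratio was -0.03 in the weakest bin, -0.08 and -0.24 in the next, and -0.42 in the strongest, where 91.2% were below WT and 23.1% were lower by at least 1.5 times. Ctcf, Nipbl, Pds5a, Rad21, Stag1 and Yy1 were in the strongest bin, and Mau2, Pds5b and Smc3 were in the bin next to it, where 70.8% were below WT. Of the 6 genes in the strongest bin, Stag1, Pds5a and Nipbl were under the median of that bin, and Ctcf, Rad21 and Yy1 were above it. Mau2, Smc3 and Pds5b were all under the median of their own bin.

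**Figure D3:**
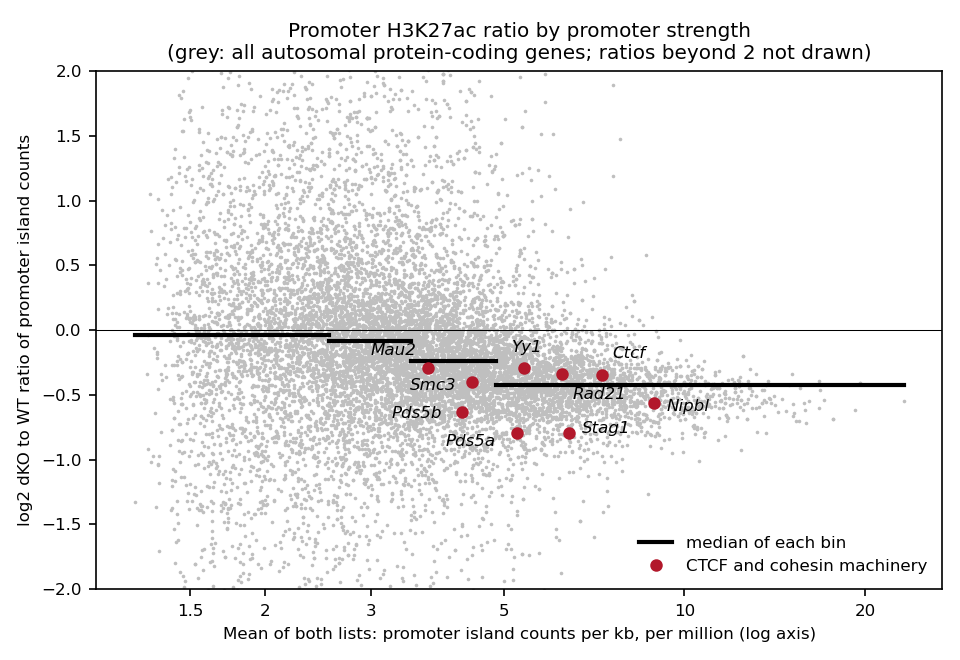
log2 dKO to WT ratio of promoter island counts (y axis) against the mean of scaled promoter counts per kb of both lists (x axis, log scale), with 9 genes in red and all autosomal genes in grey. Black lines give the median of each bin, which falls from -0.03 to -0.42 toward strong promoters, and the genes lie on both sides of the median in the strongest bin, while Mau2, Smc3 and Pds5b lie under that of the bin next to it.

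Away from the promoters the picture was different. The islands of the rest of the window had a higher scaled count in dKO at 7 of 9 genes, beside 55.2% of 15144 genes, and for Stag1, which is among the 7, the interval held 0. The median log2 ratio was 0.30, beside 0.06 for all genes (interquartile range -0.29 to 0.46). In each of the 9 genes the promoter ratio was below that of the rest of its window, as it was at 65.4% of 12187 genes. Per kb the rest of the window differed little, with a median of 0.02 and a range of -0.18 to 0.14, and the island cover of the rest was wider in dKO at each gene except Stag1.

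**Figure D4:**
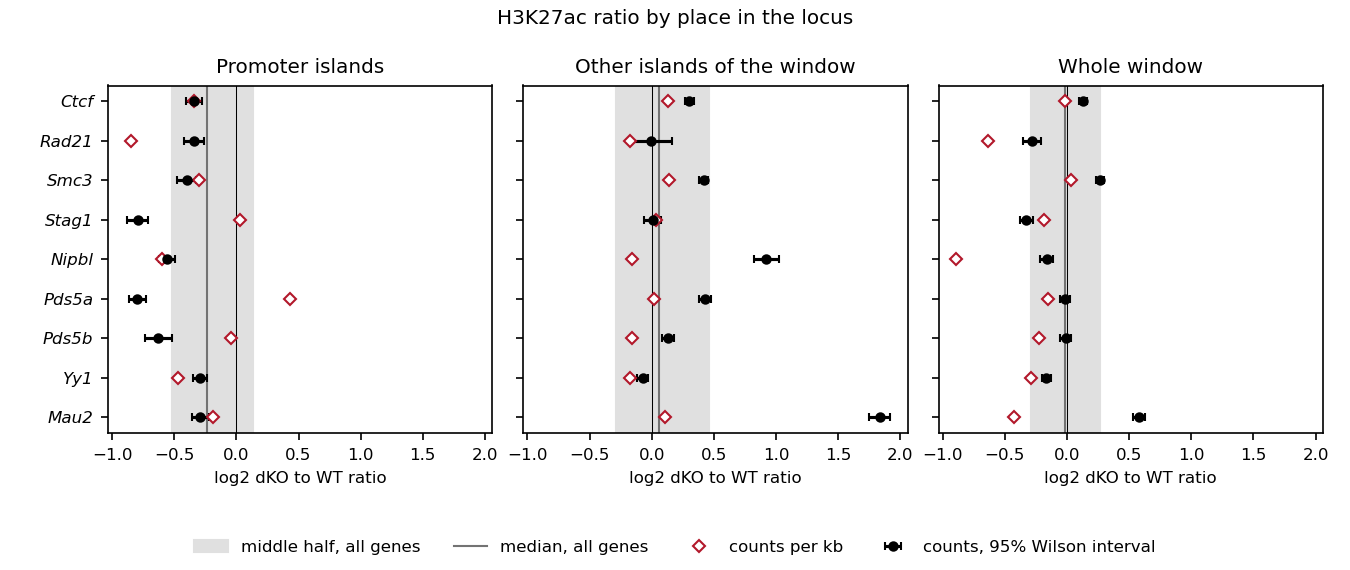
log2 dKO to WT ratios of the 9 genes for promoter islands, other islands of the window and the whole window. Black points are counts with 95% Wilson intervals (counting error only), open diamonds are counts per kb, and the grey band and line give the interquartile range and the median of all genes for counts. The promoter points lie left of 0 at each gene, with the diamonds of Stag1 and Pds5a right of it, and the Nipbl and Mau2 points of the other islands lie farthest right, at 0.92 and 1.84, with their diamonds near 0.

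In the rest of the window an increase of at least 1.5 times was found at 2 of 9 genes, Mau2 and Nipbl, beside 3065 of 15144 genes. A decrease of that size was found at 0 of 9, beside 1992. The increase at Nipbl depended on small dKO islands, as given below. Outside its promoter, Mau2 had 1596 counts in 2 WT islands (12.2 kb) and 3974 counts in 5 dKO islands (40.4 kb), which gave a log2 ratio of 1.84 (1.75 to 1.92) for counts and 0.11 per kb. The gene body region at chr8:72534001-72549400, which reaches past the 3′ end, went from 734 counts over 6.4 kb to 1336 over 15.4 kb. The strongest region outside the promoter, chr8:72592001-72605800 at the start of Tm6sf2, went from 862 counts over 5.8 kb to 1674 over 13.8 kb. Upstream of it were islands in the dKO list alone at chr8:72606401-72612200, over the start of Hapln4, with 535 counts, and at chr8:72612801-72616200, with 278 counts.

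Nipbl had 1408 counts in 4 WT islands (10.2 kb) and 1859 in 11 dKO islands (21.6 kb) outside its promoter, which gave 0.92 (0.82 to 1.02) for counts and -0.16 per kb. Of its 11 merged regions 6 were in the dKO list alone and 0 in the WT list alone, beside 28.4% and 12.4% of merged regions over all autosomes. The dKO-only islands were small, with 942 counts in all, and the largest was chr15:8407201-8410000, upstream of the gene, with 218. In 1 setting, islands with fewer than 3 counts per 1000000 counts of their list were left out. The whole-window ratio of Nipbl was then -0.46 in place of -0.16, and its promoter ratio was -0.53. The higher value of the rest therefore depended on its smallest dKO islands, and its ratio in that setting was not computed. A narrow upstream region at chr15:8401201-8402000 stood out by height. Its 342 counts over 0.8 kb in WT and 138 over 0.6 kb in dKO gave -0.79 (-1.07 to -0.50), the same direction as the promoter. The region outside the promoter with the most counts, chr15:8349401-8355000 in an intron, had 527 and 405 counts (0.14, -0.05 to 0.33).

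Pds5a and Smc3 had log2 ratios of 0.43 and 0.42 for the rest of their windows. For Pds5a the count includes the split piece of the promoter island. The strongest upstream region of Pds5a, chr5:66111201-66121200, had 2019 counts in WT and 1261 in dKO (-0.16, -0.26 to -0.06), and an intronic island at chr5:66060801-66066600 was in the dKO list alone, with 577 counts. For Smc3 most of the rest was the broad region of Dusp5, a gene for a MAP kinase phosphatase, at chr19:53600001-53643600. It had 10065 counts in WT and 9031 in dKO, a log2 ratio of 0.36 (0.32 to 0.40), and without islands at other promoters the whole-window ratio of Smc3 was -0.03 in place of 0.26. A dKO-only island at chr19:53669801-53672000 upstream of Smc3 had 207 counts.

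At Ctcf the rest of the window had a log2 ratio of 0.30 (0.27 to 0.34). Its strongest region was that of Fam65a, chr8:108110001-108156600, with 10532 counts in WT and 7610 in dKO (0.05, 0.01 to 0.09). The higher value rested on the window's edge: an island of Rltpr at the 3′ end of Ctcf just entered the window in dKO, with 1699 counts, while the WT island, with 2675 counts, began just past the end of the gene. With islands counted in proportion to the part inside the window, the whole-window ratio of Ctcf was -0.07 in place of 0.13.

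Pds5b had a log2 ratio of 0.13 (0.08 to 0.18) for the rest of its window. Its strongest region outside the promoter, at the start of N4bp2l2 (chr5:151465601-151472200), had 2145 counts over 3.4 kb in WT, nearly as many as the Pds5b promoter, and 1404 over 6.2 kb in dKO. The ratio was -0.09 (-0.19 to 0.01) by counts and -0.96 per kb. A dKO-only island within the gene, chr5:151552401-151555400, had 210 counts.

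The rest of the window was near WT at Rad21, Stag1 and Yy1, with log2 ratios of -0.01, 0.01 and -0.07. Rad21 had few islands outside its promoter, the strongest being chr15:51827601-51830400 upstream, with 239 counts in WT and 214 in dKO (0.36, 0.09 to 0.63). Yy1 had a strong upstream region at chr12:109992801-110011800, with no annotated gene inside it, that held 6483 counts over 17.6 kb in WT and 3989 over 18.4 kb in dKO. Its log2 ratio was -0.18 (-0.24 to -0.12) by counts and -0.25 per kb. A WT-only island lay farther upstream, at chr12:109979401-109982200, with 293 counts.

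Stag1 is the longest gene of the set, and its islands outside the promoter were many and weak. Its window held 26 merged regions, of which 8 had islands in both lists, 8 in WT alone (2046 counts) and 10 in dKO alone (1475 counts). Over all autosomes 12.4% of merged regions were in WT alone and 28.4% in dKO alone. At Stag1 the scaled count outside the promoter was nearly the same in both lists, while the places where islands were called differed. In introns between the 5′-most start and the promoter island, the 5 regions were in the dKO list alone, from chr9:100500001 to position 100519800, each with 96 to 195 counts. Islands in the WT list alone with at least 200 counts were chr9:100454201-100456400 (242 counts) upstream and chr9:100552001-100555400 (339), chr9:100593801-100595400 (208), chr9:100652801-100655200 (243), chr9:100663601-100667600 (427), chr9:100717401-100718800 (202) and chr9:100849801-100852200 (249) within the gene. The shared region outside the promoter with the most WT counts, the intronic chr9:100584801-100591000, had 648 counts over 4.8 kb in WT and 207 over 2.6 kb in dKO (-1.13, -1.35 to -0.90). The upstream region chr9:100457801-100463400, which had the most dKO counts, went the other way, with 512 counts in WT and 414 in dKO (0.21, 0.03 to 0.40). No count is given where no island was called.

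Over the 9 windows there were 93 merged regions, 53 with islands in both lists, 11 in WT alone and 29 in dKO alone. Over all autosomes 59.2% of merged regions were in both lists, 12.4% in WT alone and 28.4% in dKO alone. Of the islands of the 9 windows, 62 of 73 in WT and 67 of 96 in dKO touched an island of the other list. The 9 promoter regions of the genes themselves had islands in both lists, as did 7 of 8 regions at other promoters, 15 of 26 upstream regions and 22 of 50 gene body regions. Of the upstream regions in both lists, 11 were higher and 4 lower in dKO by counts, and 8 were higher and 7 lower per kb. Of those in gene bodies, 8 were higher and 14 lower by counts, which turned per kb to 14 higher and 8 lower. Among 32774 shared autosomal regions away from promoters, 48.8% were higher by counts and 54.6% per kb.

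Over the whole window, where promoter and other islands are summed, no gene reached a ratio of 1.5. The count was 0 of 9 higher, beside 11.7% of 16043 genes, and 0 of 9 lower, beside 10.3%. The median log2 ratio was -0.02, beside -0.01 for all genes (interquartile range -0.29 to 0.27). Mau2 was highest at 0.58 (0.53 to 0.63), with 6483 counts in WT and 6759 in dKO, 1.49 times the WT share. This value depended on the window: it was 0.12 with 10 kb upstream and 0.07 over the gene body. Without islands at other promoters it was 1.79, but that setting also drops the Mau2 promoter island, which is shared with Sugp1. Smc3 followed at 0.26 (0.23 to 0.30), from 15762 to 13201 counts, and Ctcf at 0.13 (0.10 to 0.16), from 17040 to 12994. Pds5b and Pds5a were at -0.01 and -0.02, with intervals that hold 0. Nipbl and Yy1 were at -0.16 and -0.17. Rad21 was at -0.28 (-0.35 to -0.21), from 4152 to 2387 counts, and Stag1 was lowest at -0.33 (-0.38 to -0.28), from 8439 to 4689. In this order Pds5a and Pds5b, Nipbl and Yy1, and Rad21 and Stag1 were neighbours whose intervals overlapped. Per kb of island the median was -0.22, beside -0.16 for all genes, and the sign of Ctcf and Mau2 turned, to -0.02 and -0.43. A decrease of at least 1.5 times per kb was found for Rad21 and Nipbl, beside 9.28% of all genes, and no increase, beside 0.362%.

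A wider list of 27 autosomal genes of the field was set beside them. It held 22 genes of cohesin release and acetylation, Smc5/6, condensin, topoisomerase II and factors that act with CTCF or at loops, and 5 germ cell genes. Over the window 1 of the 22 was higher by at least 1.5 times, beside 11.7% of all genes. This was Maz, which encodes a zinc finger factor found with CTCF, at 0.67 (20229 counts in WT and 22430 in dKO). With 86 kb of cover in WT and 132 kb in dKO its islands reached beyond its window of 54.9 kb, and the ratio was 0.05 per kb and 0.09 with islands counted in proportion to the part inside. Another 2 were lower, beside 10.3% of all genes: Top2a, the topoisomerase II of dividing cells, at -1.77 (61270 and 12544 counts), and Ncapg, a condensin subunit, at -0.98 (1805 and 640). The Top2a islands also reached far beyond its window of 81.2 kb, with 175 kb of cover in WT, and counted in proportion the ratio was -0.63. The median of the 22 was -0.15. Their promoters had a median of -0.24, beside -0.24 for all promoters. Of the 20 with promoter islands in both lists, 4 were higher by at least 1.5 times (Cdca5, Ncapd2, Ncapg2 and Maz), beside 12.6% of all promoters. A further 3 were lower by that size (Ncapd3, Top2b and Zfp143), beside 20.1%, and 12 of the 20 were below WT at any size, beside 67.9%. Per kb the sign turned for Ncapg, among the called genes, over the window (0.35) and for Cdca5, Ncapd2, Ncapg2, Maz, Ncapd3 and Top2b at promoters. Top2a had a promoter ratio of -0.15, so its window value came from islands outside its promoter. Wapal, the cohesin release factor that acts with the Pds5 proteins, had a promoter ratio of -0.56 (3609 and 1702 counts) and a window ratio of -0.37.

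Of the germ cell genes, Smc1b, Rad21l and Ctcfl, the germ cell counterparts of Smc1a, Rad21 and Ctcf, had no promoter island in either list, and Rad21l had no island in its whole window. Ctcfl still had 10186 counts in WT and 5558 in dKO over its window, a log2 ratio of -0.35, and Smc1b had 1438 in WT and no island in dKO. Of the 45.6 kb of Ctcfl island cover in WT, 24.3 kb lay inside the window. With islands counted in proportion to the part inside, the Ctcfl ratio was 0.31. Rec8, a meiotic kleisin, had a promoter island of 2177 counts over 13.4 kb in WT and of 6281 over 43.2 kb in dKO, which was 2.05 by counts and 0.36 per kb. In dKO the islands of Rec8 covered 84.8 kb and reached beyond its window of 57.4 kb. Its window ratio was 0.53 with islands counted whole and -0.09 with islands counted in proportion to the part inside.

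**Figure D5:**
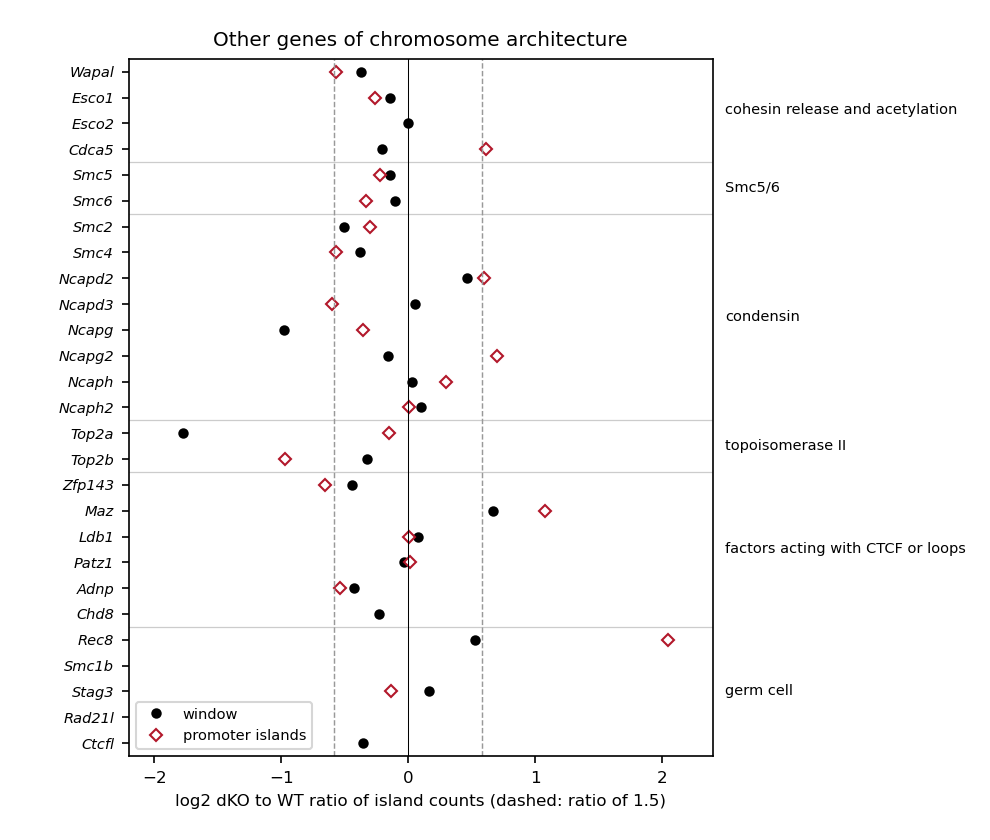
log2 dKO to WT ratio of island counts for 27 other genes of chromosome architecture, by role, over the window (black) and at promoter islands (open diamonds), with dashed lines at a ratio of 1.5. Genes without a point or diamond lacked islands in 1 or both lists. Top2a and Ncapg lie farthest left over the window, and Rec8 and Maz lie farthest right at promoters.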

How the data were processed

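H3K27ac ChIP-seq of WT (4 samples) and dKO (3 samples) naive CD8+ T cells was analysed. The authors aligned reads to mm9 with Bowtie2 2.2.5, kept uniquely mapped reads, combined the replicates within each genotype, and then ran SICER 1.1 (window 200 bp, gap 400 bp, FDR 0.01); FastQC is also named in the submitters' processing notes. The deposited lists hold raw read counts per island, not scaled for depth or width. Whether duplicate reads were removed is not given in the sources used here. Input samples carried no values and were not analysed here.

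Starts, which the lists count from 0, were given counted from 1. Gene positions were those of GENCODE vM1 on NCBIM37, which is mm9. An island that overlapped a window was counted whole. Counts were divided by the total island counts of the list, since the lists differ in depth. Whether they also differ in enrichment was not tested. Wider islands hold more reads, so counts per covered kb are given too, and where no island was called there is no count. Merged regions join WT and dKO islands with an overlap of 1 bp or more. 95% Wilson intervals of the dKO share of counts cover counting error only, since the lists are pooled over replicates. They treat reads as independent, which reads are not, so they may be too narrow even for counting error. With 1 pooled list per genotype no test was run. Background shares cover the autosomal protein-coding genes that had islands in WT and dKO alike. Merging, ratios and intervals were tested on simulated data.

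The genes, the wider list, the motifs and the rules were chosen with earlier results of these data known. All 9 genes are named; single islands are named for promoters, for the strongest region outside the promoter and, where found in 1 list, with at least 200 counts; other genes are named when past a ratio of 1.5 over the window, when they lack promoter islands, or when their promoter island enters a window. The narrow Nipbl region, the intronic dKO islands of Stag1, Wapal, Rec8 and the wider genes past a ratio of 1.5 at promoters were named after their values were seen. Python 3.11.15, numpy 2.4.6, scipy 1.17.1 and matplotlib 3.10.9 were used.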

Additional observations from a re-analysis of the deposited data

How the results depend on the processing

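Counts per kb of island turned the window ratios of Ctcf (-0.0197) and Mau2 (-0.43) and the promoter ratios of Stag1 (0.0317) and Pds5a (0.43). They gave 2 genes lower over the window, medians of -0.22 over the window and -0.30 at promoters, and 0 higher and 6 lower among the 22 wider genes (over all genes 0.362% were higher and 9.28% lower per kb over the window). A window of 10 kb upstream gave a median of -0.19, with Ctcf at -0.44 and Smc3 at -0.13, and the gene body alone gave -0.31, with Smc3 also at -0.31. Islands counted in proportion gave a median of -0.0710, with Ctcf at -0.0710, and 0 higher among the 22 wider genes, a setting added for them after seeing the data. Without islands at other promoters, 1 gene (Mau2) was higher over the window and Smc3 was at -0.0346. The Mau2 promoter island, shared with Sugp1, is dropped in that setting too, so its value there leaves out its own promoter. Scaling by shared regions or by their median ratio shifted each log2 ratio by 0.07, gave 1 gene higher (Mau2), ended the promoter call of Pds5b (2 of 9 lower) and moved the window median to 0.0548 and 0.0568. A lower ratio for a call gave 1 higher and 1 lower. A promoter of 2.5 kb put Yy1 at 0.0307. Islands of at least 3 counts per 1000000 gave 0 genes higher and 0 lower over the window. The window median was then -0.0458, with Nipbl at -0.46. With 50% reciprocal overlap, 40 WT and 41 dKO islands had a partner. The cause was not tested beyond what each setting counts or scales. With the 5′ end alone as the promoter, Stag1 had no promoter island and 2 of 8 genes were lower.

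For single genes, 37 of 81 window values and 49 of 71 promoter values moved by less than their counting interval, and the others moved by more. Their sign differed from the reported value in 13 and 3 cases, of which 6 were window values of Pds5a and Pds5b, which lie near 0. Scaling by autosomal counts (a shift of -0.01) and the whole merged promoter region were chosen after seeing the data. No paired analysis was possible because the lists are pooled over replicates, and for the same reason no replicate was left out. Relative counting error is larger for small islands, and pooled lists hold no spread between mice.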
